A study of Mus musculus with 16 samples.

Results

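The genes described here are Mbp, Mobp, Cnp, Mag, Mog, Cldn11, Ermn and Pmp22, which encode proteins of the myelin sheath. They were found by symbol in the deposited gene list, whose length is given with the processing, and were taken by name. Their levels were followed through the 17 clusters that the authors defined, which include Clusters 4 and 8 (named oligodendrocytes), oligodendrocyte precursors (OPCs) and Schwann cells, and over the time after a spinal cord injury.

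The study took spinal cord tissue from around a lesion of the dorsal columns at C5, or the matching tissue of uninjured mice, and made a 10x Genomics 3′ library from the dissociated cells of each mouse. The mice were 8 to 10 weeks old and were taken uninjured or at 1 d, 7 d or 14 d after injury, with 2 mice in each of 8 conditions. The control mice (called WT) had the genotype Ryk+/+,GFAPcreERT2 and the knockouts (called cKO) had Rykfl/fl,GFAPcreERT2, so that both carried the inducible Cre. The GFAP promoter drives that Cre in astrocytes, tamoxifen was given daily around the time of the operation, and Ryk itself encodes a Wnt receptor of the cell surface. The labels call the uninjured mice sham, whereas their titles mark them as mice without spinal cord injury.

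Oligodendrocytes wrap the axons of the central nervous system in layers of their own membrane, and Schwann cells do so in peripheral nerve. Basic proteins on the cytoplasmic face draw the layers together, and other proteins hold the sheath to its axon, seal the layers against each other or shape the cytoskeleton of the cell. The messenger RNAs of Mbp and Mobp are known to travel into the processes of the oligodendrocyte, where protein is made close to the growing sheath.

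Values are counts of unique molecular identifiers (UMIs), each standing for 1 captured RNA molecule, summed over the cells of a cluster in a mouse and scaled to the total UMIs of those cells as CPM. A mouse entered a cluster with at least 10 cells, and means are given with the SD over mice. The 3′ libraries count molecules and not length, and levels are compared mostly between cell types and mice. Where genes are set side by side, the values are portions or levels of captured UMIs only. The libraries held 208 to 1845 cells (median 1223) and 536263 to 9008729 UMIs (median 3032957). Oligodendrocytes (Clusters 4 and 8) numbered 36 to 342 cells per mouse.

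Several libraries stood apart. Replicate 2 of the WT mice at 1 d held 1 cell and was left out, which left 15 of 16 mice. In 6 mice, that one included and all numbered replicate 2, the names of the cells give another condition than the sample title. The titles were followed here, and the conditions of the cell names are an alternative. The first replicates of either genotype at 1 d and 7 d made up 4 shallow libraries, with a median of 414 to 548 UMIs per cell against 1040.5 to 3637 in the others. These 4 also shared cell barcodes: each of their 6 pairs had 28 to 115 in common, 92.4% of them in the same cluster, whereas no other pair of libraries had more than 4. Of their 5237 cells, 335 carried a shared barcode, and 30 of those were oligodendrocytes. Both replicate 2 libraries of the uninjured mice had the largest portions of myelin RNA, with the 8 genes at 0.987% (WT) and 1.17% (cKO) of all UMIs against a median of 0.506% over the 15 mice.

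Ryk was detected in mice of both genotypes. In Clusters 5 and 7, which the authors named astrocytes, Ryk ranged from 70.1 to 169.5 CPM in the 7 WT mice (median 115) and from 24.0 to 136 CPM in the 8 cKO mice (median 105). The genotypes overlapped, and the lowest cKO value rests on 1 UMI. The deleted exon is not given in the labels and a 3′ tag need not lie in it, so these counts check nothing about the deletion.

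The names of the clusters were held against fixed marker genes that leave the 8 genes out. Opalin, which marks oligodendrocytes, was among the 10 leading genes of Cluster 4, and the OPC, Schwann and endothelial clusters each led with 4 or 5 of their own markers. The neurons and Cluster 7, named astrocytes, held 0 of their own among the 10 leading genes, but over pooled cells 6 of 8 neuronal and 8 of 8 astrocyte markers reached 50 CPM in them. Their names were kept. Cluster 2 carries the name astrocytes, but its 10 leading genes held 0 astrocyte markers and included the neurofilament genes Nefl and Nefh, the kinesin gene Kif5a and Mobp, and 12.4% of its UMIs were mitochondrial. Astrocyte markers were present all the same, as given below, so it is called by its number. Cluster 6, named microglia, held 4 microglial markers among its 10 leading genes. Cluster 10, with the same name, held 0 of them and 1 macrophage marker (Lyz2), and its first genes were Spp1, Ctsd and Apoe. For the tests their cells were summed, and the clusters are called by their numbers.

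Mbp encodes myelin basic protein, which draws the cytoplasmic faces of the membrane together. Its level was 10538 ± 9663 CPM in Cluster 8 (n = 14 mice) and 6644 ± 2160 CPM in Cluster 4 (n = 15), but the highest mean was that of Cluster 2, at 12076 ± 6141 CPM (n = 11). Schwann cells followed Cluster 8 with 7137 ± 1171 CPM (n = 5) and Cluster 5 came next with 6917 ± 4464 CPM (n = 14). None of these 5 clusters differed from its neighbour in the order beyond the spread over mice: Cluster 2 was above Cluster 8 in 7 of 11 mice, and Cluster 5 above Cluster 4 in 8 of 14. The spread of Cluster 5 followed the libraries. Its Mbp was 1362 to 2416 CPM in the 4 shallow libraries and replicate 1 of uninjured WT. In the others, which include all 8 of those mice, it was 5508 to 12753 CPM. The nuclear RNA Malat1 was 21771 to 39677 CPM in the former and 1762 to 7516 CPM in the latter. The part of library quality in this was not tested. The first clear step led down to neurons, at 3192 ± 1275 CPM, since Cluster 4 was higher in 15 of 15 mice by 1.08 ± 0.37 on the log2 scale. OPCs held 2551 ± 1309 CPM and endothelial cells 1775 ± 1567 CPM, and no cluster fell below the 1009 ± 555 CPM of fibroblasts. When each cell was weighted alike, or thinned to 500 UMIs, Cluster 8 had the highest mean in place of Cluster 2.

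Mobp encodes another small basic protein of the cytoplasmic face. Clusters 8, 2, 4 and 5 led here as well, but without Schwann cells. Cluster 8 had 2667 ± 1251 CPM, Cluster 2 followed with 2416 ± 1603 CPM, and the mean of Cluster 4 was 1964 ± 543 CPM. Those 3 did not differ beyond their spread, and with at least 30 cells per mouse Cluster 2 came first. Cluster 5 (1474 ± 1072 CPM) lay below Cluster 4 in 10 of 14 mice, again within the spread. Its Mobp was split by library as its Mbp was. It was 46.9 to 500 CPM in the 4 shallow libraries and replicate 1 of uninjured WT, and 1073 to 3194.5 CPM in the others. Neurons had 510 ± 192 CPM, OPCs 327 ± 229 CPM, endothelial cells 316 ± 367 CPM and Schwann cells 248 ± 161 CPM.

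The next 4 genes kept much more closely to the oligodendrocyte clusters. Cnp encodes a phosphodiesterase of the uncompacted, cytoplasm-filled channels of the sheath, and it had 2176 ± 690 CPM in Cluster 8 and 1830 ± 492 CPM in Cluster 4. Schwann cells held 1258 ± 481 CPM of Cnp, below Cluster 4 in 5 of 5 mice, and OPCs held 673 ± 482 CPM, below Schwann cells in 5 of 5. In endothelial cells Cnp stood at 37.4 ± 20.7 CPM.

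Mag is an adhesion protein of the innermost layer, where it faces the axon, and it is also known to hold back the regrowth of axons. Its mean was 2339 ± 916 CPM in Cluster 8 and 2134 ± 727 CPM in Cluster 4, which did not differ beyond the spread (Cluster 8 higher in 10 of 14 mice). Mag then dropped to 370 ± 260 CPM in Schwann cells, 305 ± 374 CPM in OPCs and 209 ± 107 CPM in neurons, a group within which neighbours overlapped. It was 14.9 ± 16.7 CPM in endothelial cells.

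Mog lies on the outer surface of the sheath and is a target of antibodies in demyelinating disease. It had 1131 ± 559 CPM in Cluster 8 and 996 ± 440 CPM in Cluster 4, while OPCs, the next in order, had 89.3 ± 101 CPM and lay below Cluster 4 in 14 of 14 mice. Neurons held 84.9 ± 44.0 CPM and Cluster 2, for all its Mbp, 42.8 ± 37.3 CPM. Mog in Schwann cells (5.79 ± 8.13 CPM) was no higher than in endothelial cells (7.46 ± 9.91 CPM).

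Cldn11 forms the tight junctions that run through the layers of central myelin. It measured 1737 ± 1111 CPM in Cluster 8 and 1631 ± 1067 CPM in Cluster 4, with an SD that is large beside either mean. OPCs had 317 ± 379 CPM and fibroblasts 291 ± 213 CPM, and these 2 did not differ beyond the spread. Fibroblasts exceeded endothelial cells of the same mouse in 9 of 9 mice, by 2.06 ± 0.91 on the log2 scale, although 4 of these 9 mice had only 1 to 4 UMIs of Cldn11 in fibroblasts. Endothelial cells held 18.2 ± 17.1 CPM.

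Ermn encodes ermin, an actin-binding protein that appears late as oligodendrocytes mature. It stepped clearly between the oligodendrocyte clusters, as did Pmp22, with 1859 ± 575 CPM in Cluster 8 and 871 ± 255 CPM in Cluster 4. Cluster 2 came next at 165 ± 60.1 CPM, below Cluster 4 in 11 of 11 mice. OPCs, at 27.0 ± 23.0 CPM, were close to endothelial cells, at 17.7 ± 13.6 CPM, and exceeded them in 8 of 14 mice.

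Pmp22 encodes a membrane protein of compact peripheral myelin, whose gene dosage underlies inherited neuropathies. Its highest level was in Schwann cells, at 7338 ± 2106 CPM, and each of the 5 mice with enough Schwann cells had more there than in Cluster 8, by 3.86 ± 0.20 on the log2 scale. Cluster 8 had 445 ± 166 CPM, fibroblasts 298 ± 182 CPM, Cluster 10 189 ± 85.8 CPM, Cluster 6 178 ± 46.3 CPM and Cluster 4 159 ± 81.5 CPM. From fibroblasts to Cluster 4 the neighbours did not differ beyond their spread. Pmp22 in Clusters 6 and 10 together exceeded that in endothelial cells in 14 of 14 mice, by 1.19 ± 0.42 on the log2 scale, and OPCs had only 40.4 ± 24.2 CPM.

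**Figure D1:**
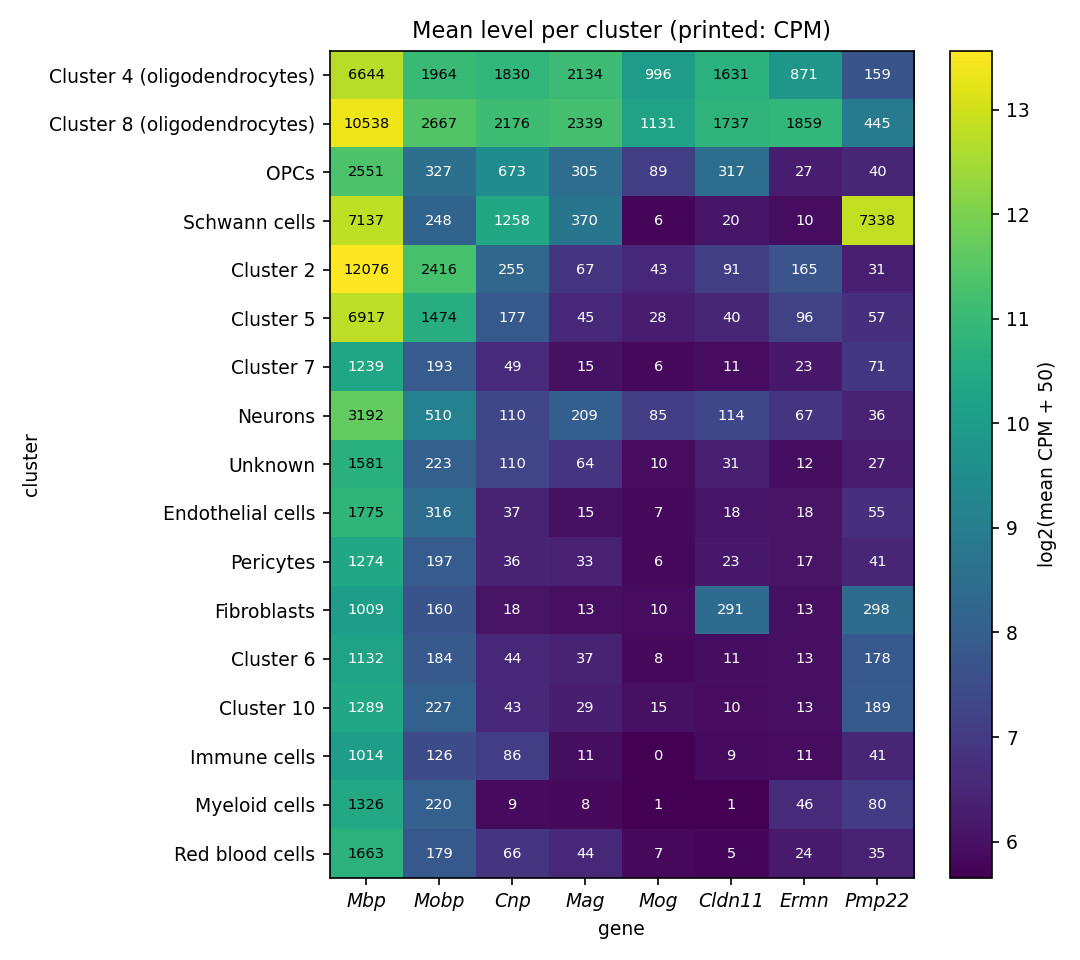
Mean level of the 8 genes in the 17 clusters, with the mean CPM over mice printed in each square and the colour giving its log2 after adding 50. Mog, Mag, Cldn11 and Ermn fill the squares of Clusters 4 and 8, Pmp22 that of Schwann cells (7338 CPM), and Mbp is above 1000 CPM in all 17 clusters.

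The same split shows in where the molecules lay. Clusters 4 and 8 held 13.4% of all UMIs. They held 85.9% of the UMIs of Mog, 83.3% of Ermn, 81.8% of Mag, 77.8% of Cldn11 and 74.0% of Cnp. Only 39.3% of Mobp and 28.4% of Mbp lay there. The remaining Mbp was spread over neurons (16.6%), Cluster 5 (15%), endothelial cells (10.8%) and Cluster 2, which had 10.3% of the Mbp UMIs and 2.35% of all UMIs. For Pmp22, Schwann cells held 38.6% of its UMIs with 1.14% of all UMIs, and oligodendrocytes 19.9%.

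The make-up of the myelin RNA, that is, the portion of each gene among the UMIs of all 8, separated the cell types further. In oligodendrocytes Mbp made up 41.4% ± 15.1 (n = 15 mice, 24.3% to 71.3%). In endothelial cells it made up 78.3% ± 4.4 (n = 15), in Cluster 2 79.8% ± 3.8 and in Cluster 5 78.5% ± 4.2. Cell types as unlike as endothelial cells and Cluster 5 thus carried a nearly equal mixture, dominated by Mbp with Mobp second. Neurons (72.8% ± 6.5), OPCs (60.2% ± 13) and fibroblasts (56.1%) lay between, and Schwann cells had 44.0% ± 6.5 Mbp beside 44.3% ± 7.0 Pmp22. How much of the Mbp and Mobp outside oligodendrocytes came from free RNA or from fragments of myelin was not tested.

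**Figure D2:**
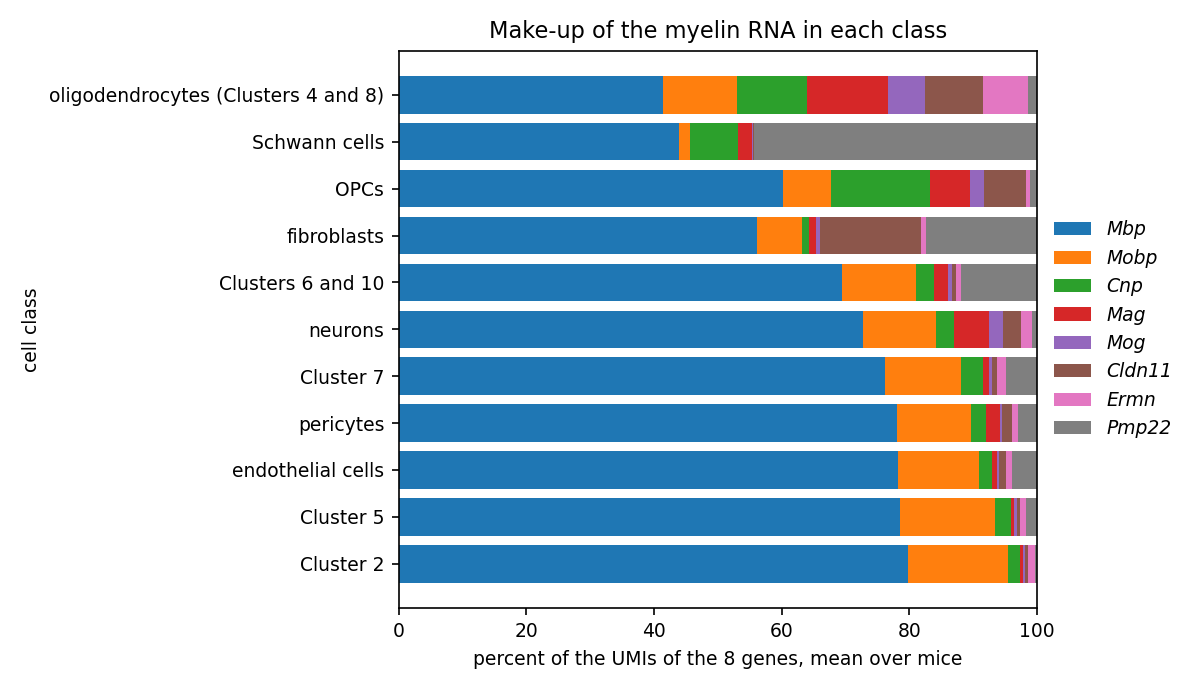
Each bar shows the percent of the UMIs of the 8 genes that belongs to each gene, as the mean over mice of a cell class. The Mbp portion is 41.4% in oligodendrocytes and 78.3% in endothelial cells, and Pmp22 fills 44.3% of the bar of Schwann cells.

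Single cells gave the same contrast. Cells were thinned to 500 UMIs, and those with fewer were left out, which removed 651, 750, 761 and 798 cells of the 4 shallow libraries and 0 elsewhere. In the remaining cells Mbp was found in 92.0% of the cells of Cluster 4, 92.6% of Cluster 8 and 94.8% of Cluster 2, but also in 50.5% of endothelial cells, which should lack it. Mog was found in 28.8% of the thinned cells of Cluster 4 and 31.8% of Cluster 8, against 0.983% of endothelial cells and 4.29% of OPCs. Without thinning the shares for Mog were 51.5% (median of 1115 UMIs per cell), 52.8% (1003.5 UMIs), 1.67% (890 UMIs) and 9.73% (1000 UMIs). A UMI of Mbp in a cell therefore says little about its type at this depth. Mog was also found in 3.46% of thinned neurons and 16.7% of neurons without thinning (median of 1848 UMIs), and neurons held 7.44% of all Mog UMIs against 1.72% in OPCs. For each of the 8 genes the share in Cluster 4 and in Cluster 8 exceeded the share in endothelial cells.

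Within mice, Cluster 8 differed from Cluster 4 in a few members. Ermn was higher in Cluster 8 in 14 of 14 mice, by 1.00 ± 0.38 on the log2 scale, and so was Pmp22, by 1.20 ± 0.40. Mobp was higher in 12 of 14 mice (0.31 ± 0.36), Mog and Mag in 10, Cnp in 9, and Mbp and Cldn11 in 8. For Mbp the mean difference was 0.32 ± 0.60, and the large value came from few mice: Cluster 8 held 28994 CPM in WT and 34716 CPM in cKO in the replicate 2 libraries of the uninjured mice, and 17271 CPM in replicate 2 of WT at 7 d. In the same 3 libraries the nuclear RNA Malat1 was at its lowest in Cluster 8, at 10026, 1642 and 11608 CPM. In the other mice after injury Mbp in Cluster 8 stayed between 4594 and 8591 CPM. The clusters were made from these genes among others, so no test was made between them.

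Cluster 2 set Mbp and Mobp apart from the rest of the list. Compared with oligodendrocytes of the same mouse, Mbp was higher in Cluster 2 in 10 of 11 mice (0.41 ± 0.56 on the log2 scale) and Mobp in 6 of 11. The other 6 members were lower in 11 of 11 mice: Cnp by a mean of -2.67, Ermn by -2.54, Cldn11 by -3.28, Mog by -3.39, Mag by -4.20 and Pmp22 by -1.88 on the log2 scale. Malat1 was lower as well, by -3.02 in 11 of 11. Markers of 3 cell types met in Cluster 2. Over its pooled cells 8 of 8 astrocyte markers reached 50 CPM, with a sum of 7327 CPM led by Slc1a2 (4627 CPM). The same held for 7 of 8 neuronal markers, with a sum of 3165 CPM led by Nefl (1137 CPM), and for 4 of 8 oligodendrocyte markers. No marker of the 3 lists was at 0, and their part in its Mbp was not tested. Cluster 5, also named astrocytes, held 14293 CPM of astrocyte and 2616 CPM of neuronal markers. It shared the pattern in the make-up of its myelin RNA. Compared with oligodendrocytes of the same mouse, the portion of Mbp was higher there in 14 of 14 mice and that of Mobp in 12. The portions of Mog, Mag, Cnp, Cldn11 and Ermn were lower in 14 of 14, and that of Pmp22 in 10. Of its UMIs 10.6% were mitochondrial, and its 10 leading genes held Nefl beside 3 astrocyte markers.

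In OPCs all 8 genes were lower than in oligodendrocytes of the same mouse in 14 of 14 mice, with mean log2 differences from -1.61 for Mbp to -4.09 for Ermn. They were not evenly low. Compared with endothelial cells of the same mouse, Cnp was higher in OPCs in 14 of 14 mice (2.80 ± 0.98), Mag in 14 of 14 (1.92 ± 1.15) and Cldn11 in 13 of 14 (1.86 ± 1.27), whereas Mobp (11 of 14), Ermn (8 of 14) and Pmp22 (5 of 14) were within the spread. Mbp was lower in OPCs in the replicate 2 libraries of uninjured WT (2278 against 5383 CPM) and cKO mice (2039 against 5306 CPM). In all other mice Mbp was higher in OPCs. Mog was higher in OPCs except in replicate 2 of uninjured WT, where it was lower, and replicate 1 of cKO at 1 d, with no UMIs in either.

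The cells of the OPC cluster were also divided by the myelin genes themselves. Of 637 cells pooled over the 15 mice, 71 (11.1%) had UMIs of at least 3 of the 5 genes Mog, Mag, Ermn, Cldn11 and Cnp. Among the 14 mice with at least 10 OPCs, 11 held such cells, with 20 of the cells in replicate 1 of cKO at 7 d. By the same measure the share was 63.2% in Cluster 8, 53.7% in Cluster 4, 16.3% in neurons, 5.31% in Schwann cells, 2.47% in Cluster 2 and 0.381% in endothelial cells. With cells pooled over mice, and higher in myelin genes by their choice, these 71 OPCs held 5813 CPM of Mbp against 1848 CPM in the other 566 and differed unevenly in genes known from newly formed oligodendrocytes. Enpp6 was 805 against 66.8 CPM, Bmp4 273 against 44.8 CPM, Bcas1 1869 against 967 CPM, Itpr2 900 against 557 CPM and Gpr17 749 against 495 CPM, whereas Neu4 was lower in the 71 cells (237 against 336 CPM). Pdgfra, the growth factor receptor of precursors, was 161 CPM in them and 934 CPM in the others. They were also deeper, with a median of 2577 UMIs per cell against 834.5, and depth alone makes 3 of 5 genes easier to reach. Its part in the difference, and that of droplets with 2 cells, was not tested.

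Schwann cells carried a peripheral version of the list. Relative to oligodendrocytes of the same 5 mice, Pmp22 was higher in 5 of 5 by 4.39 ± 0.31 on the log2 scale, and Mbp was higher in 4 of 5 by 0.22 ± 0.45, within the spread. Cnp was lower in 5 of 5 by a mean of -0.75, Mag by -2.91 and Mog by -4.19. Over time the Mbp of Schwann cells was 5247 CPM in the 1 mouse at 1 d, 7597 and 7793 CPM at 7 d and 6828 and 8221 CPM at 14 d, and no uninjured mouse had 10 Schwann cells, so no comparison with uninjured tissue could be made. Cell numbers were uneven, with 103 Schwann cells in replicate 2 of cKO at 7 d and 13 to 20 in each of the others. The 7793 CPM came from replicate 1 of WT at 7 d, a shallow library with 32 UMIs of Mbp among 4106 in these cells. Mag and Mobp had 0 UMIs there.

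Injury and genotype were then compared in oligodendrocytes, which asks whether surviving or newly formed oligodendrocytes carry a different set of myelin RNAs after the lesion, and whether loss of Ryk in astrocytes alters it. The levels of Mbp split by library more than by time. In uninjured mice Mbp stood at 4547 and 17191 CPM in WT and at 5353 and 20664 CPM in cKO. At 1 d it was 4549 CPM in the 1 WT mouse and 5088 and 6688 CPM in the cKO mice. The 2 highest values were thus uninjured mice of replicate 2, and the 2 uninjured mice of replicate 1 lay at or within the low end of the injured mice. Both of these replicate 2 libraries are among the 6 whose cell names differ from the title: the names call the WT one uninjured cKO, and the cKO one WT at 7 d. At 7 d Mbp was 4874 and 10708 CPM in WT and 5672 and 7541 CPM in cKO. At 14 d it was 5070 and 7064 CPM in WT and 6429 and 7393 CPM in cKO. In every condition with 2 mice, replicate 2 was the higher one, and over the whole set the 8 replicate 1 libraries spanned 4547 to 6429 CPM.

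Mobp followed Mbp in the same libraries. It measured 1939 and 3164 CPM in uninjured WT mice and 1175 and 4383 CPM in uninjured cKO mice. After injury its 11 values ran from 1542 to 2800 CPM with a median of 1911 CPM. Only the replicate 2 libraries of the uninjured mice lay above the range of the injured mice. In those 2 libraries Malat1 in oligodendrocytes was 15285 CPM (WT) and 12243 CPM (cKO), below the 25956 to 56670 CPM of the 11 injured mice, and the part that RNA quality had in their Mbp and Mobp was not tested.

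The edgeR fits gave negative log2 fold changes for both genes, which turned with the libraries. For Mbp they were -1.62 ± 0.85 (SE) at 1 d, -1.17 ± 0.71 at 7 d and -1.34 ± 0.72 at 14 d against uninjured, with adjusted p of 0.849, 0.905 and 0.880. Mobp had -0.57 ± 0.62, -0.98 ± 0.55 and -0.88 ± 0.55, with adjusted p of 0.896, 0.904 and 0.880. Without both replicate 2 libraries of the uninjured mice, an alternative chosen after seeing the data, Mbp came to 0.12, 0.60 and 0.46 and Mobp to 0.69, 0.30 and 0.43. When cell names set the conditions, Mbp was -0.33, 0.34 and -0.51 and Mobp -0.0905, 0.0791 and -0.13, so that only 7 d turned. The direction of either gene after injury therefore rests on these 2 libraries. The cell names also move 3 of the injured mice to other conditions, and which of these labels turned the 7 d values was not tested. In Cluster 8 alone the unadjusted p in edgeR was 0.0110, 0.0150 and 0.00603 for Mbp and 0.0450, 0.00506 and 0.00873 for Mobp, with adjusted p no lower than 0.445.

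**Figure D3:**
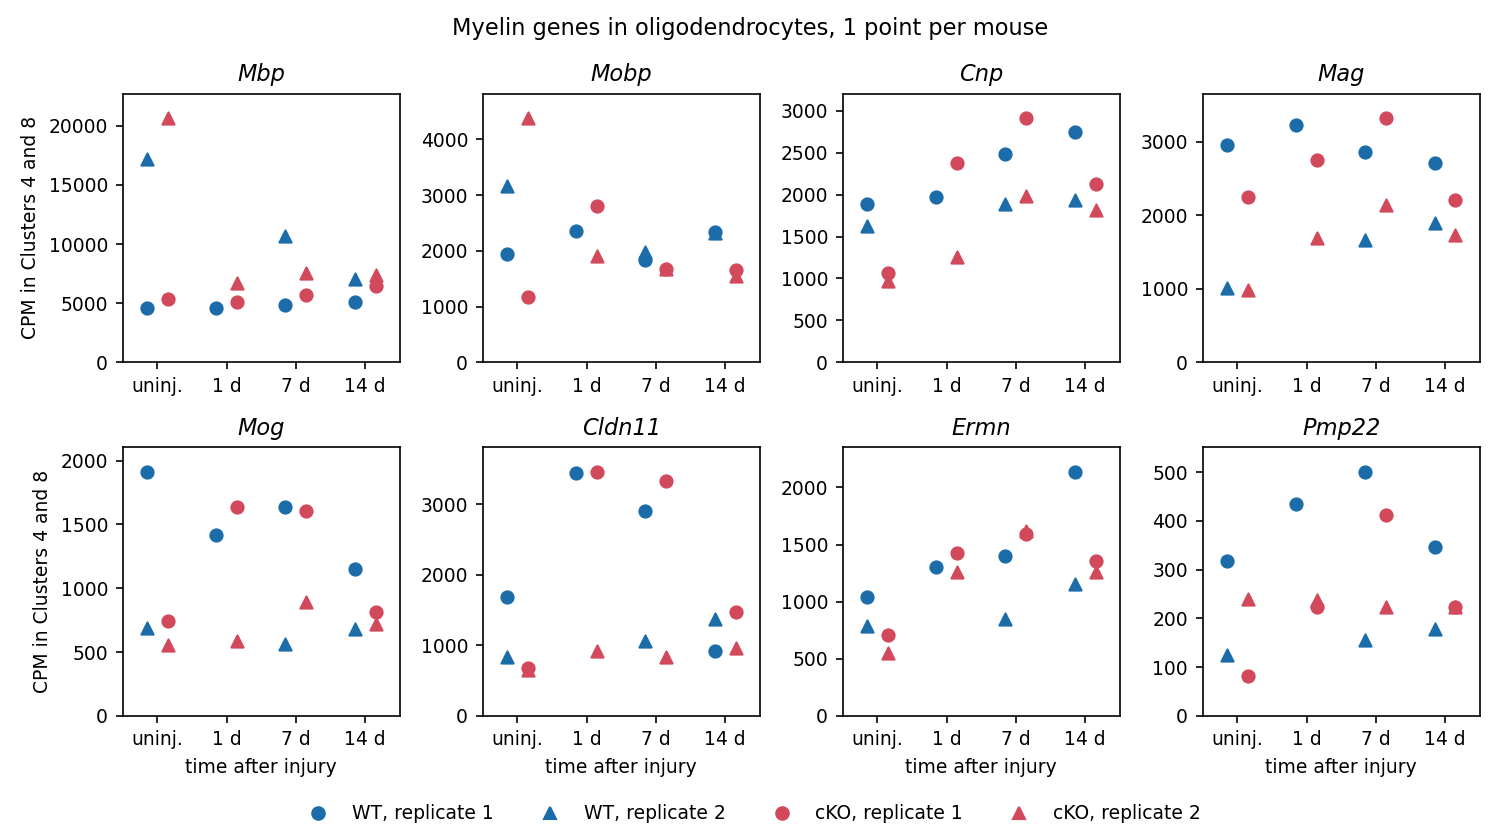
CPM of the 8 genes in oligodendrocytes (Clusters 4 and 8), 1 point per mouse, by time after injury; colour gives the genotype and shape the replicate number. Mbp and Mobp are highest in the replicate 2 libraries of the uninjured mice, and Cldn11 is highest in replicate 1 at 1 d and 7 d.

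Cldn11 was high in another set of libraries. It stood at 3440 CPM (WT) and 3464 CPM (cKO) in replicate 1 at 1 d, and at 2910 and 3328 CPM in replicate 1 at 7 d. These are the 4 shallow libraries that share barcodes, and the other 11 ran from 649 to 1685 CPM with a median of 920 CPM, without overlap. Among those 11 the uninjured mice had 1685 and 840 CPM (WT) and 675 and 649 CPM (cKO). The injured mice had 920 CPM at 1 d, 1066 and 831 CPM at 7 d, and 920, 1372, 1467 and 963 CPM at 14 d, a range shared with the uninjured mice. In the edgeR fit the log2 fold change was 1.35 ± 0.63 at 1 d (unadjusted p 0.0489, adjusted p 0.849), 0.93 ± 0.58 at 7 d and 0.11 ± 0.57 at 14 d. Without the 4 shallow libraries, also chosen after seeing the data, the value at 7 d was -0.21.

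Mog, Mag and Pmp22 shared part of this split. Mog was 1415 to 1640 CPM in the 4 shallow libraries and 553 to 1914 CPM in the others, where only replicate 1 of the uninjured WT mice exceeded the shallow ones. Mag ranged from 986 to 3325 CPM over the 15 mice, and its 2 lowest values were the replicate 2 libraries of the uninjured mice (1004 CPM in WT, 986 CPM in cKO), which had the most Mbp. Pmp22 ran from 81.5 to 501 CPM. For all 3 genes the time points overlapped.

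Ermn came nearest to separating injured from uninjured mice. It was 1044 and 790 CPM in uninjured WT and 710 and 553 CPM in uninjured cKO mice. Ermn was 1304 CPM (WT) and 1424 and 1261 CPM (cKO) at 1 d, and at 7 d 1398 and 848 CPM (WT) and 1595 and 1619 CPM (cKO). At 14 d it was 2140 and 1159 CPM (WT) and 1354 and 1262 CPM (cKO). In unscaled CPM all mice at 1 d and 14 d thus exceeded all 4 uninjured mice, and 1 mouse at 7 d, replicate 2 of WT, fell inside their range. With TMM scaling Ermn in replicate 2 of WT at 14 d (1046) also lay below uninjured WT mice (1105 and 1087). The 2 clusters differed in this. In Cluster 4 alone the 4 uninjured mice (458 to 838 CPM) overlapped with the injured ones, among them 606 CPM in cKO replicate 2 at 1 d and 595 CPM in WT replicate 2 at 7 d. In Cluster 8 alone all 11 injured mice (1633 to 2970 CPM) exceeded the 3 uninjured ones (713, 941 and 1421 CPM), the 2 lowest of which are the replicate 2 libraries with the most Mbp. After the TMM scaling of the fit they overlapped (uninjured WT replicate 2 at 1475, WT at 1 d at 1465), and the adjusted p in edgeR was 0.768, 0.710 and 0.543. How far the mix of the 2 clusters moved the summed values was not tested. For the summed clusters the edgeR log2 fold changes of Ermn were 0.58 ± 0.44, 0.58 ± 0.40 and 0.71 ± 0.40, with adjusted p of 0.868, 0.911 and 0.880, so the difference did not pass the test. When cells were thinned to 500 UMIs the value of Ermn at 14 d was -0.0170. Cnp was 969 to 1886 CPM in uninjured and 1260 to 2917 CPM in injured mice, which overlapped.

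Over all genes, edgeR called 0 of 8624 tested in oligodendrocytes at each of the 3 times against uninjured (0%, adjusted p under 0.05), and so 0 of the 8 members. With the replicate block it called 1 gene at 1 d and 6 at 14 d, none of them a member. Unadjusted p was below 0.05 for 434, 419 and 449 genes, 1 (Cldn11), 0 and 0 of them members, while the DESeq2 calls numbered 1, 1 and 3, none of them a member. With the fold changes of all members side by side, 6 of 8 were above 0 at 1 d, 6 at 7 d and 5 at 14 d, with medians of 0.34, 0.39 and 0.07 beside -0.05, 0.01 and 0.02 over all genes tested. The 3 time contrasts share the same uninjured mice. Without TMM scaling the medians over all genes moved to 0.13, 0.21 and 0.24, and again 6, 6 and 5 members were above 0.

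Genotype made little difference that could be seen in oligodendrocytes. After injury Mbp ran from 4549 to 10708 CPM in the 5 WT mice (median 5070) and from 5088 to 7541 CPM in the 6 cKO mice (median 6559). Ermn ran from 848 to 2140 CPM in WT (median 1304) and from 1261 to 1619 CPM in cKO (median 1389). The genotypes overlapped in both genes, and within the same time and replicate number each was higher in cKO in 4 of 5 pairs, by 0.0557 ± 0.33 (Mbp) and 0.14 ± 0.54 (Ermn) on the log2 scale. Mog, Cnp and Cldn11 were higher in cKO in 3 of 5 pairs, Mag and Pmp22 in 2 of 5, and Mobp in 1 of 5 (-0.23 ± 0.32). The fitted log2 fold changes of cKO against WT, averaged over 1 d, 7 d and 14 d, lay between -0.42 (Pmp22) and 0.09 (Mbp), with 2 of 8 members above 0 and a median of -0.17 beside 0.06 over all genes. In that comparison edgeR called 0 of 8624 genes (0%) and 0 members, with 190 genes and 0 members below 0.05 in unadjusted p and 0 genes by DESeq2.

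Wider lists of genes around myelin gave 0 calls as well in the 4 comparisons in oligodendrocytes. The 12 measured genes of cytoskeleton and enzymes, with Trf (3824 CPM), Apod (3554 CPM) and Car2 (1409 CPM) the most abundant, had median log2 fold changes of 0.38, 0.22 and 0.49 at 1 d, 7 d and 14 d. For 13 genes of lipid synthesis, among them Scd2 (2435 CPM), Ugt8a (963 CPM) and Fa2h (649 CPM), 12 were above 0 at 1 d and 4 at 14 d, with medians of 0.46, 0.07 and -0.29. Of 10 transcription factors of the lineage, with St18 (1677 CPM), Olig1 (308 CPM) and Sox10 (303 CPM) leading, 10, 9 and 9 were above 0, with medians of 0.55, 0.49 and 0.48. For 5 of 7 genes of newly formed oligodendrocytes that passed the filter, with Enpp6 (324 CPM), Fyn (119 CPM) and Itpr2 (59.8 CPM) leading, the medians were 0.29, 0.93 and 0.46. For 16 other genes of the myelin membrane and adhesion the medians were 0.21, 0.19 and 0.06. Only 2 of 8 peripheral myelin genes passed the filter, with medians of 2.82, 2.45 and 0.39. Between genotypes the median over all genes was 0.06. The lists ran from -0.72 (the 2 peripheral genes) and -0.26 (newly formed oligodendrocytes) to -0.03 (lipid synthesis).

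Myelin RNA outside oligodendrocytes was followed in endothelial cells, the largest cluster (4201 cells), which should not make it. Mbp in endothelial cells was 657 and 5383 CPM in uninjured WT mice and 607 and 5306 CPM in uninjured cKO mice. At 1 d it was 688 CPM in WT and 1730 and 2654 CPM in cKO. The highest 2 values, as in oligodendrocytes, were the replicate 2 libraries of the uninjured mice, and the uninjured mice of replicate 1 were among the lowest. At 7 d Mbp was 720 and 1041 CPM in WT and 1134 and 2268 CPM in cKO, and at 14 d 836 and 1189 CPM in WT and 942 and 1464 CPM in cKO. Mobp was 95.3 and 1167 CPM in uninjured WT and 123 and 1234 CPM in uninjured cKO mice, and 83.3 to 328 CPM (median 181) in the 11 injured mice. Malat1 in endothelial cells was lowest in the replicate 2 libraries of the uninjured mice (12923 and 13547 CPM against 16218 to 37790 CPM in the other 13).

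**Figure D4:**
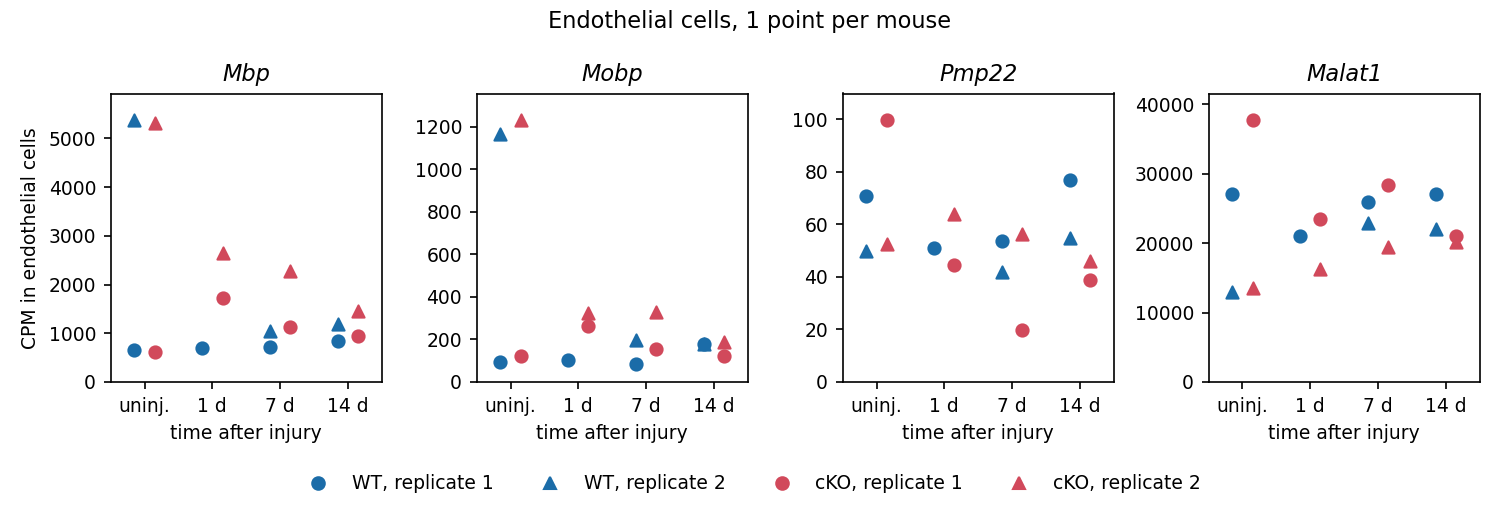
CPM of Mbp, Mobp, Pmp22 and Malat1 in endothelial cells, 1 point per mouse, by time after injury; colour gives the genotype and shape the replicate number. Mbp stands at 5383 and 5306 CPM in the replicate 2 libraries of the uninjured mice and no higher than 2654 CPM in any other mouse.

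In the edgeR fit of endothelial cells Mbp had log2 fold changes of -1.63 ± 0.79, -1.70 ± 0.67 and -1.83 ± 0.67 at 1 d, 7 d and 14 d, and Mobp -2.29 ± 0.89, -2.20 ± 0.72 and -2.37 ± 0.71. None passed the test, with adjusted p of 0.923 for both at 1 d, 0.546 at 7 d and 0.657 at 14 d. Among 10985 genes 1 passed in edgeR at 1 d (0.00910%), 0 passed at 7 d (0%) or at 14 d (0%), and none was a member. The 1 called gene was Lcn2, which encodes a secreted iron-scavenging protein of inflammation. Lcn2 rose by 6.12 ± 0.78 on the log2 scale (adjusted p 0.0104) and is named here because its value was seen. Lcn2 leads the myeloid cluster too, as 1 of its first 10 genes, and 0 genes were called without either uninjured cKO mouse, without replicate 1 of WT at 1 d, without the 4 shallow libraries, without both replicate 2 libraries of the uninjured mice, or when cell names set the conditions. Unadjusted p was below 0.05 for 570, 981 and 830 genes, 1 (Mobp), 4 (Mbp, Mog, Mobp and Pmp22) and 4 (Mbp, Mog, Cnp and Mobp) of them members, and the DESeq2 calls numbered 3, 0 and 1, none of them a member.

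These values again depended on which libraries entered. Among the 9 mice with animal numbers of 10000 and above, chosen after seeing the data, edgeR called 204 of 11447 genes at 7 d and 362 at 14 d, with 4 members (Mbp, Mog, Cnp and Mobp) each time. There Mbp was -2.23 (adjusted p 0.0194) and -2.70 (adjusted p 0.00175), and Mobp -2.68 (adjusted p 0.00730) and -3.26 (adjusted p 5.48e-04), in fits where all uninjured mice were the 2 replicate 2 libraries. Over all alternatives the adjusted p ran from 9.10e-05 to 1.000 (7 d) and from 1.68e-05 to 1.000 (14 d) for Mbp, and from 4.42e-09 to 1.000 and from 2.28e-10 to 1.000 for Mobp, the lowest each without the filter on low counts. Without the replicate 2 libraries of the uninjured mice Mbp came to 0.98, 0.96 and 0.82 and Mobp to 0.70, 0.85 and 0.64, above 0 at all 3 times. By the cell names, Mbp and Mobp were each 0.60 at 7 d. Time and library cannot be told apart in either setting. The whole list of 8 oligodendrocyte markers did not move in the same way: its summed level in endothelial cells was 1364 and 1309 CPM in the 2 libraries against 541 to 2000 CPM in the other 13, with Mal the most abundant, and 7 (WT) and 8 (cKO) of the 8 genes had UMIs.

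Between genotypes, Mbp in endothelial cells after injury was 688 to 1189 CPM in the 5 WT mice (median 836) and 942 to 2654 CPM in the 6 cKO mice (median 1597). The ranges overlapped, but within the same time and replicate number cKO was higher in 5 of 5 pairs, by 0.69 ± 0.48 on the log2 scale. The fitted log2 fold change was 1.01 ± 0.60 (p 0.111, adjusted p 1.000 in edgeR), 0.71 with the replicate block and 0.15 when cell names set the conditions. Of the 8 members 7 were above 0, with a median of 0.98 beside 0.04 over all genes. In that comparison edgeR called 0 of 10985 genes (0%), with 313 genes and 1 member (Mag, p 0.0237, adjusted p 1.000) below 0.05 before adjustment, and 0 in DESeq2.

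The Mbp of endothelial cells was set against the share of oligodendrocytes in each library, which gave negative correlations that depended on the libraries. Over the 15 mice, log2 Mbp in endothelial cells and the percent of UMIs in oligodendrocytes had a Pearson r of -0.511 (permutation p 0.0516) and a Spearman rho of -0.454 (permutation p 0.0920). Without the 2 mice farthest from the median share, replicate 1 of uninjured WT and of cKO at 7 d, r was -0.474 (permutation p 0.103). Within replicate 1 (8 mice) r was 0.166 (permutation p 0.720) and within replicate 2 (7 mice) -0.308 (permutation p 0.485), so the values differed in sign between batches. Without both replicate 2 libraries of the uninjured mice, chosen after seeing the data, r was -0.214 (permutation p 0.482). With the percent of cells in place of UMIs r was -0.581 (permutation p 0.0230), but -0.410 (permutation p 0.164) without the 2 mice farthest from that median and -0.294 (permutation p 0.326) without those replicate 2 libraries. For Mbp in Clusters 6 and 10 r was -0.286 (14 mice, permutation p 0.318). These values do not tell where endothelial Mbp came from.

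In OPCs 7 of the 8 members passed the filter, Ermn being too low. Mbp was 1504 and 2278 CPM in uninjured WT mice and 2039 CPM in the 1 uninjured cKO mouse with enough OPCs. After injury it was 1602 to 2303 CPM in the 5 WT mice (median 1624) and 1673 to 5925 CPM in the 6 cKO mice (median 3569), an overlap at the low end. Mobp was 110 to 243 CPM in injured WT mice (median 167) and 134 to 824 CPM in injured cKO mice (median 402). The 2 genes had the lowest unadjusted p among the members in the comparison of genotypes: Mobp with a log2 fold change of 1.52 ± 0.49 (p 0.00558) and Mbp with 1.08 ± 0.44 (p 0.0229), each with an adjusted p of 0.894 in edgeR. Over the alternatives the values were 0.74 to 2.52 for Mobp and 0.71 to 1.61 for Mbp, with adjusted p of 0.583 to 1.000. With the replicate block Mobp was 1.39 and Mbp 0.92, and within the same time and replicate number Mbp was higher in cKO in 5 of 5 pairs and Mobp in 4 of 5. The share of OPCs with at least 3 of the 5 genes named above also differed between mice. It was 4.69% to 21.4% in injured WT and 0% to 33.3% in injured cKO mice. The highest was in replicate 2 of cKO at 7 d, which had the most Mbp. The part of this share in the genotype difference was not tested. Of the 7 members 6 were above 0 between genotypes, with a median of 1.03 beside 0.24 over all genes. Over 5417 genes 0 passed in edgeR at any time or between genotypes (0% each). Unadjusted p was below 0.05 for 268, 347, 286 and 237 genes, with 0, 0, 0 and 2 members, and the DESeq2 calls numbered 0, 2, 1 and 0, none of them a member.

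In Clusters 6 and 10 Mbp was 939 to 2103 CPM in the 3 uninjured mice and 622 to 1034 CPM in the 4 mice at 14 d, which overlapped. Mobp was 128 to 357 CPM in uninjured mice and 86.7 to 158 CPM at 14 d, with a log2 fold change of -1.24 ± 0.36 in edgeR (unadjusted p 0.00270, adjusted p 0.160). Without both replicate 2 libraries of the uninjured mice it was 0.13. Pmp22 was 104 to 143 CPM in uninjured mice, 211 to 222 CPM at 1 d, 148 to 232 CPM at 7 d and 149 to 235 CPM at 14 d, so that each injured mouse exceeded each of the 3 uninjured mice in unscaled CPM. With TMM scaling Pmp22 in replicate 2 of uninjured WT (156) lay above replicate 2 of WT at 7 d (141) and 14 d (151). Its adjusted p was 0.392, 0.594 and 0.528, which did not pass the test. Among 9268 genes those passing in edgeR were 23 (0.248%) after 1 d, 10 (0.108%) after 7 d, 32 (0.345%) after 14 d and 0 (0%) for genotype, with 0 members in any, and in DESeq2 103, 38, 67 and 0. Leaving out 1 mouse took the edgeR counts to 0 to 36, 4 to 36 and 0 to 56, and without both replicate 2 libraries of the uninjured mice they were 1, 1 and 12. The mix of the 2 clusters is part of these comparisons: Cluster 10 made up 14.1% to 42.1% of the cells in uninjured mice, 25.5% to 55.7% at 1 d, 28.9% to 47.5% at 7 d and 44.0% to 62.5% at 14 d. The called genes include leading genes of Cluster 10 going up (Spp1 and Lpl at each time) and of Cluster 6 going down (P2ry12 and Gpr34 at 1 d). How far the mix moved Pmp22 was not tested. Between genotypes Mbp was higher in cKO in 5 of 5 pairs of the same time and replicate number, by 0.50 ± 0.34 on the log2 scale, and the members had a median of 0.38 beside 0.09 over all genes. Unadjusted p was below 0.05 for 1278, 783, 986 and 343 genes, with 0, 0, 2 and 0 members.

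The 8 genes lie on 7 chromosomes of GRCm38 (mm10). In the GENCODE vM21 annotation Mbp is at chr18:82475146-82585637 (+), Mobp at chr9:120149707-120181484 (+), Cnp at chr11:100574904-100591729 (+) and Mag at chr7:30899176-30914873 (-). Mog is at chr17:37010743-37023398 (-), Cldn11 at chr3:31149920-31164324 (+), Ermn at chr2:58045113-58052864 (-) and Pmp22 at chr11:63128982-63159547 (+). Cnp and Pmp22 share chromosome 11 at a distance. Mobp is overlapped by Gm38642 on its own strand, and Mbp, Mog, Cnp and Ermn are each overlapped by 1 gene on the opposite strand, which a stranded 3′ count would keep apart.

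Across the 17 clusters, correlations between the members ranged widely. On log2 levels, Mog correlated with Ermn at r = 0.954, with Mag at 0.941 and with Cldn11 at 0.934, Mag with Cnp at 0.917, and Mbp with Mobp at 0.861. The members did not part into separate groups: Mobp correlated with Ermn at 0.891 and with Mog at 0.807, and Cnp with Mbp at 0.822, with Mog at 0.788 and with Ermn at 0.738. The lowest without Pmp22 were Mbp with Cldn11 (0.546) and with Mog (0.622). Pmp22 had r between 0.027 (Mobp) and 0.504 (Cnp) with the others. These are descriptions over 17 clusters that share libraries. Among 6503 genes with a mean of at least 100 CPM in some cluster, the 3 most like Mog were Efnb3 (0.990), Stmn4 (0.987) and A330049N07Rik (0.987), and the 3 most like Mag were Abca2 (0.973), Prima1 (0.966) and AC122117.2 (0.961). Cnp was nearest to Ugt8a (0.973), Dusp26 (0.952) and Fa2h (0.944), Cldn11 to Enpp2 (0.949), Tmeff2 (0.948) and Myrf (0.938), and Ermn to Tmem151a (0.986), S1pr5 (0.977) and Tmem88b (0.975). The nearest to Mbp were Svip (0.970), Plekhb1 (0.924) and Mapk8ip1 (0.923), and to Mobp Dbndd2 (0.968), Tubb3 (0.953) and Prr18 (0.942). Pmp22 was nearest to Gm13403 (0.902), B230206H07Rik (0.901) and Sema4c (0.893).

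Promoters were read for 7 members, in 12 windows of 250 bases before the start, from RefSeq sequences on GRCm38.p6. Letters like those bound by MYRF, the factor that drives myelin genes (CTGGNAC, on both strands), are in 16.1% of all 32851 windows, and letters like those bound by SOX factors (ACAAAG, on both strands) in 16.5%. Of the 12 windows, some of which overlap, 5 held the first (in Mog, Mag, Cnp and Pmp22) and 4 the second (in Mag, Cnp and Mobp), whereas the windows of Ermn and Cldn11 held neither. Below, the windows of 4 genes are shown up to the GENCODE start of the gene, with the matches of either motif in capitals, to show how they differ: Mog has 1 match of the first, Mag and Cnp have 2 of the first and 1 of the second, and Mobp has 6 of the second and 0 of the first. A match is a run of letters and was not tested as a binding site. The windows are Mog chr17:37023399-37023648 (-), Mag chr7:30914874-30915113 (-), Cnp chr11:100574689-100574903 (+) and Mobp chr9:120149492-120149706 (+), each written 5′ to 3′ on the strand of its gene.
Mog: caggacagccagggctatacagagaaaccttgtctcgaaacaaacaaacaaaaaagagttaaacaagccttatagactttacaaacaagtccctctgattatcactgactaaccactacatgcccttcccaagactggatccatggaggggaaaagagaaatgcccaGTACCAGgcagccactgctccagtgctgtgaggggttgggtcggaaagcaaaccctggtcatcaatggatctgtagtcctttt
Mag: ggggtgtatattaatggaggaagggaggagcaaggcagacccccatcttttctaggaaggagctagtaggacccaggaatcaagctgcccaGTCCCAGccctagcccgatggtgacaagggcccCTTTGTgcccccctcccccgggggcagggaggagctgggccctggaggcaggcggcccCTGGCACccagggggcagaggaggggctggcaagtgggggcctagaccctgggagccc
Cnp: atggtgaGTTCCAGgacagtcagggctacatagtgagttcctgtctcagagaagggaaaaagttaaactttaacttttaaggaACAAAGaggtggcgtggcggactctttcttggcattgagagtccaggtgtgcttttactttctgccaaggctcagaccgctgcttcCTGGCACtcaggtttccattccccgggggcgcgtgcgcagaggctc
Mobp: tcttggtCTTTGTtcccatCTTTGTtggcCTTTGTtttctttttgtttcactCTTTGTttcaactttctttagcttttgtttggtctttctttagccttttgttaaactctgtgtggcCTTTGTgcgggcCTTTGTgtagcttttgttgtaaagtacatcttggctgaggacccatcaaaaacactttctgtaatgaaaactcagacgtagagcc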

How the data were processed

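Reads were aligned by the authors to mm10 (Cell Ranger, then Seurat), with a limit of 25% for mitochondrial UMIs and at least 200 genes per cell. They deposited raw UMI counts, without normalization, of 55487 genes in 18203 cells with a table of UMI counts per cell, clusters and animals. No doublet removal is stated and none was made here. Members and gene lists were chosen with earlier results of these data known. Counts were summed per mouse and class (at least 10 cells) and fitted in R 4.3.3 with edgeR 4.0.16 (limma 3.58.1; TMM, filterByExpr, quasi-likelihood, means of 8 conditions; Benjamini-Hochberg, 0.05), with DESeq2 1.42.0 as an alternative. Within-mouse differences used log2(CPM + 50). Python 3.11.15, numpy 2.4.6, scipy 1.17.1, pandas 2.3.3 and matplotlib 3.10.9 served for the rest, with up to 100000 permutations. Named genes were the members, the 3 most abundant per list and the 3 most alike per member. The authors' batch equals the replicate number. Deviations from condition means correlated above 0.1 in 15 of 21 pairs of conditions in oligodendrocytes (median 0.246), and replicates were paired only in an alternative. Unused per-sample columns numbered 0. Other alternatives changed filters, scaling, depth, clusters, labels and libraries.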

Additional observations from a re-analysis of the deposited data

How the results depend on the processing

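With 1 or 2 mice per condition, a p that misses the threshold does not show that levels were equal. The 4 shallow libraries were all the first replicates of 1 d and 7 d, so depth was not separable from time within replicate 1. RNA outside a cell's own type, fragments of myelin and droplets with 2 cells were not measured. Clusters were taken as the authors gave them.

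In oligodendrocytes the number of genes called at 1 d, 7 d and 14 d was 0 throughout, and the alternatives changed it as follows. DESeq2 called 1, 1 and 3 genes, and dropping the filter on low counts gave 33, 37 and 52, with 7 between genotypes. The replicate block gave 1 at 1 d and 6 at 14 d, and a term for the animal number series gave 2, 7 and 115. Animal numbers of 10000 and above alone gave 83 at 14 d. Without the 4 shallow libraries there was 1 at 1 d and 1 at 14 d. Library totals without TMM gave 1 at 1 d, totals without the 8 members 1 at 1 d, and the conditions of the contrast alone 1 at 1 d and 1 at 14 d. No member was called in any of them. Leaving out 1 mouse gave 0 to 1 genes at 1 d.

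In OPCs, where 0 genes were called, no filter on low counts gave 6, 15 and 4 at the 3 times and 1 between genotypes, DESeq2 gave 2 at 7 d and 1 at 14 d, and the replicate block gave 1 at 1 d. With at least 30 cells per mouse the 14 d comparison could not be fitted.

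In endothelial cells 1 gene was called at 1 d. DESeq2 gave 3 there and 1 at 14 d. No filter on low counts gave 80, 148 and 140 genes and 35 between genotypes, with 2 members at 1 d (Mbp and Mobp), 3 at 7 d (Mbp, Mobp and Mog) and 2 at 14 d (Mbp and Mobp). The conditions of the cell names gave 0 at 1 d, as did leaving out the 4 shallow libraries (0, with 2 between genotypes) or both replicate 2 libraries of the uninjured mice (0). Animal numbers of 10000 and above alone gave 204 genes at 7 d, 362 at 14 d and 3 between genotypes, with 4 members at 7 d and 4 at 14 d. Leaving out 1 mouse gave 0 to 3 genes at 1 d, 0 to 4 at 7 d and 0 to 31 at 14 d. The highest at 7 d and 14 d came without replicate 1 of the uninjured WT mice, which also gave 1 member at 14 d (Mobp). Omitting either uninjured cKO mouse, replicate 1 of WT or cKO at 1 d, or replicate 1 of WT at 7 d moved a count as well.

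In Clusters 6 and 10, with 23, 10 and 32 genes, DESeq2 gave 103, 38 and 67 and no filter on low counts 153, 108 and 191, with 8 between genotypes. The replicate block gave 15, 18 and 49, and conditions read from cell names 3, 2 and 21. Animal numbers of 10000 and above alone gave 0, 0 and 1. Without the 4 shallow libraries there were 2 at 1 d, 2 at 7 d and 2 between genotypes, and without both replicate 2 libraries of the uninjured mice 1, 1 and 12. Cluster 6 alone gave 3, 0 and 0, and Cluster 10 alone 11 at 1 d and 46 at 7 d. Leaving out 1 mouse gave 0 to 36 genes at 1 d, 4 to 36 at 7 d and 0 to 56 at 14 d. At 14 d the lowest came without replicate 1 of the uninjured WT mice, at 1 d without replicate 1 of WT, and at 7 d without replicate 2 of the uninjured cKO mice or replicate 1 of WT at 7 d. Mobp at 14 d was 0.13 without both replicate 2 libraries of the uninjured mice, and ran from -1.56 to -0.75 with 1 mouse left out.

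Fold changes of the members turned direction in these settings. Without both replicate 2 libraries of the uninjured mice, Mbp in oligodendrocytes was 0.12, 0.60 and 0.46 and Mobp 0.69, 0.30 and 0.43, while in endothelial cells Mbp was 0.98, 0.96 and 0.82 and Mobp 0.70, 0.85 and 0.64. With conditions read from the cell names, Mbp in oligodendrocytes was 0.34 and Mobp 0.0791 at 7 d, Cldn11 -0.12 at 14 d, and between genotypes Mbp -0.51, Cldn11 0.0756 and Ermn -0.0710; in endothelial cells at 7 d Mbp was 0.60 and Mobp 0.60. Between genotypes Mbp in oligodendrocytes was -0.0228 with the replicate block, -0.0618 with the animal number series, and -0.19 with animal numbers of 10000 and above alone or without the 4 shallow libraries. In the latter 2 settings Cldn11 at 7 d was -0.14 and -0.21, and Pmp22 between genotypes 0.0916 and 0.0901. In Cluster 4 alone, Ermn between genotypes was -0.14 and Pmp22 0.0256. In WT mice alone, Cldn11 was -0.42 at 14 d and Ermn -0.0160 at 7 d. With cells thinned to 500 UMIs, Cldn11 was -0.49 and Ermn -0.0170 at 14 d, and Ermn -0.0855 between genotypes. The blocked fit changed no other call.

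Leaving out 1 mouse, Mobp in oligodendrocytes ran from -0.99 to 0.35 at 1 d and from -1.24 to 0.0900 at 14 d, Cldn11 from -0.0281 to 0.34 at 14 d, and between genotypes Mbp from -0.0946 to 0.34, Cldn11 from -0.66 to 0.12 and Ermn from -0.11 to 0.24. Both Mobp values turned without replicate 2 of the uninjured cKO mice. The relation of endothelial Mbp to the share of oligodendrocytes had r from -0.601 to -0.388 with 1 mouse left out and was past the threshold with the percent of cells (r -0.581, p 0.0230 by permutation), though not without the 2 mice farthest from the median (r -0.410, p 0.164 by permutation). Mbp between genotypes in endothelial cells ran from 0.59 to 1.15 with 1 mouse left out.

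The count of members highest in Cluster 4 or 8 was 6, and it was 5 with at least 30 cells per mouse, 7 with cells weighted alike and 7 with cells thinned.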
